A study of Mus musculus with 9 samples.

Results

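A set of 9 genes whose products silence retroelements or keep imprints was followed through embryoid body differentiation: Trim28, Setdb1, Zfp57, Zfp809, Zfp568, Atrx, Daxx, Chaf1a and Morc3. They were chosen by symbol, and all 9 were found among the 54232 genes of the table and among the 16168 that were tested. The samples were mouse embryonic stem cells of genotype WT under differentiation in embryoid bodies, which are clumps of floating cells that leave the pluripotent state. The groups are named EBD2, EBD5 and EBD6, each with 3 libraries of polyadenylated RNA. No group carries an allele or an added agent in the labels, which give neither the cell line nor the unit of the number in the group names. EBD2 replicates 1 and 2, and EBD6 replicates 2 and 3, agree within sampling noise (chi-square per gene 0.949 and 1.01) and were each counted as 1 sample. This left 2 EBD2, 3 EBD5 and 2 EBD6 samples. Nothing says that replicates came from separate cultures, and the spread behind each p-value is that between these samples alone, which may be technical.

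Endogenous retroviruses are silenced in stem cells by zinc finger proteins with a KRAB domain, which read a DNA sequence and recruit the corepressor TRIM28. TRIM28 in turn brings the histone methyltransferase SETDB1, which lays down trimethylation of histone H3 at lysine 9. ZFP57 uses the same route to keep DNA methylation on the methylated copy of imprinting control regions, ZFP809 binds the primer binding site of certain retroviruses, and ZFP568 represses a placental promoter of Igf2. ATRX and DAXX form a chaperone that deposits the replacement histone H3f3 products at repeats. CHAF1A is the large subunit of the chromatin assembly factor CAF-1, which places histones on newly made DNA, and MORC3 is an ATPase that acts at retroelements.

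The promoters of 4 of these genes are shown, picked by their course. The measured levels of Trim28, Daxx and Chaf1a were lowest in EBD5 with both steps called, and that of Zfp57 was not lowest there. Setdb1 was lowest in EBD5 too, but its difference between EBD6 and EBD5 was not called and its promoter is not shown. Set against genes of like GC content, Chaf1a kept its course and Trim28 and Daxx did not, as given with each gene. The sequences come from RefSeq on GRCm38.p6, which held 8 of the 9 genes. They run from 250 bases before to 50 bases after the first start site listed there for each gene. For Trim28 this site lies inside the gene span given below, not at its start. Capitals mark TGCCGC, the letters that ZFP57 reads when methylated, and TTCCCGCC, an E2F-type element of cell cycle genes, each on either strand.
Trim28, chr7:13023902-13024201, plus strand: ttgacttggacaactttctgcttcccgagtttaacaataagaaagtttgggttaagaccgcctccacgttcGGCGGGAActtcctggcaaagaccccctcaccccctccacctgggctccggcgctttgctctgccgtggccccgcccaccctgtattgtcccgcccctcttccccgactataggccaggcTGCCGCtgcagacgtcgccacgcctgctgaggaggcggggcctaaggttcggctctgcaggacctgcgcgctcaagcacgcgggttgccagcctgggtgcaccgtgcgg
Daxx, chr17:33909195-33909494, plus strand: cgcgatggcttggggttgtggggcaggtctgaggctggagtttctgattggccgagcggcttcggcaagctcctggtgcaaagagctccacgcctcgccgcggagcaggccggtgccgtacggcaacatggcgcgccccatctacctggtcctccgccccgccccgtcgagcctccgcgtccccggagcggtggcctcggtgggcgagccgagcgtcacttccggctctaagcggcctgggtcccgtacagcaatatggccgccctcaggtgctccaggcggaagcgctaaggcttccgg
Chaf1a, chr17:56040166-56040465, plus strand: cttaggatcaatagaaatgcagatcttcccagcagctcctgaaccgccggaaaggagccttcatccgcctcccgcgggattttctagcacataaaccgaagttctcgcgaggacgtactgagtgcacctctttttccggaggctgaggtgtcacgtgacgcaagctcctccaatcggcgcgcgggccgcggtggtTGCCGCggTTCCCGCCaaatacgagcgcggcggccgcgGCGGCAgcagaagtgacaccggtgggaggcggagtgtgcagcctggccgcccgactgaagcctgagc
Zfp57, chr17:37000913-37001212, plus strand: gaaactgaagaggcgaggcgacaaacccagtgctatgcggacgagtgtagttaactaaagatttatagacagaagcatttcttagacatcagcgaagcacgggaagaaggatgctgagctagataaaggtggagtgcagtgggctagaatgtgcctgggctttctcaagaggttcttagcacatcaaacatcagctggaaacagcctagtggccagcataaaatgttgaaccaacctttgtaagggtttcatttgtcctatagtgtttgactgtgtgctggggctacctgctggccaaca
The Trim28, Daxx and Chaf1a promoters held 23, 33 and 32 CpG dinucleotides and that of Zfp57 held 6, against a median of 7 and an upper quartile of 20 over the 32851 promoters of the table. The promoters of Morc3, Setdb1, Atrx and Zfp809, not shown, held 20, 15, 11 and 11 at the first start site. The 3 start sites of Zfp57 held 6, 9 and 4. A link between CpG content and the course of a gene was not tested. The E2F-type element was found in the Trim28 and Chaf1a promoters, 2 of the 8 genes, and in 2.19% of all promoters, and it is absent from the Daxx window. TGCCGC was found once in Trim28 and 2 times in Chaf1a, also 2 of the 8 genes, and in 11.6% of all promoters. The 2 motifs share no bases in these windows. Both are matches of letters, and no binding was measured.

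Libraries held 5454268 to 11704761 expected counts, and the members had 150 to 6702 counts each, so that none was near the detection limit. The level of a gene is its count scaled to library size (CPM). Nuclear ribosomal RNA genes took 0.726 to 0.811% of counts in EBD5, against 0.0165 to 0.0247% in the other groups, and GC content was correlated with the change of genes. Spearman's rho of the 2 over 13746 protein-coding genes, which are not replicates, was -0.37 for EBD5 against EBD2, 0.56 for EBD6 against EBD5 and 0.17 for the third comparison, EBD6 against EBD2. The changes of the members are therefore also given after subtracting the median change of genes of like GC content and transcript length (GC and length bins). For partner genes this value is given where it turns the direction or moves a called change by more than 1.5 times. The comparisons share groups, so they are not independent of each other.

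Between EBD2 and EBD5, 2 of the 9 members were higher, 5 were lower and 2 did not pass. Over all tested genes 34.9% were called higher and 35.1% lower (edgeR quasi-likelihood, Benjamini-Hochberg adjusted p under 0.05). Between EBD5 and EBD6, 3 members were higher and 5 lower, against 36.9% and 33.3% of all tested genes. Between EBD2 and EBD6, 5 members were lower and none was higher, against 32.3% and 33.8%. At an unadjusted p under 0.05 too none was higher in EBD6, and DESeq2 also gave 0. The share called in either direction, 7 of 9, 8 of 9 and 5 of 9, stands beside 70%, 70.2% and 66.1% of all tested genes, so most genes of these cells changed as well. The median log2 change of the members was -0.32, -0.42 and -0.26 in the 3 comparisons. Over all tested genes it was -0.00995, 0.0399 and 0.0128. With the medians of the GC and length bins subtracted, the medians of the members were -0.0293, -0.308 and -0.411. Tested against a fold of 1.5, 1 member was higher and 1 lower in EBD5 than EBD2, where 18.4%, 16.3% and, in either direction, 34.7% of all genes passed. They were Zfp809 and Chaf1a. Chaf1a was higher in EBD6 than EBD5 by that test (17.6% of all genes) and Zfp57, Zfp809 and Atrx lower (15.3%; 32.9% in either direction). Zfp57, Atrx and Morc3 were lower in EBD6 than EBD2 (14%, with 16.4% higher and 30.4% in either direction). The libraries of EBD5 and EBD2 did not overlap for 8 of 9 members, against 77.8% of all tested genes. Those of EBD6 and EBD5 did not for 9 of 9, against 76%, and those of EBD6 and EBD2 for 6 of 9, against 74.3%.

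**Figure D1:**
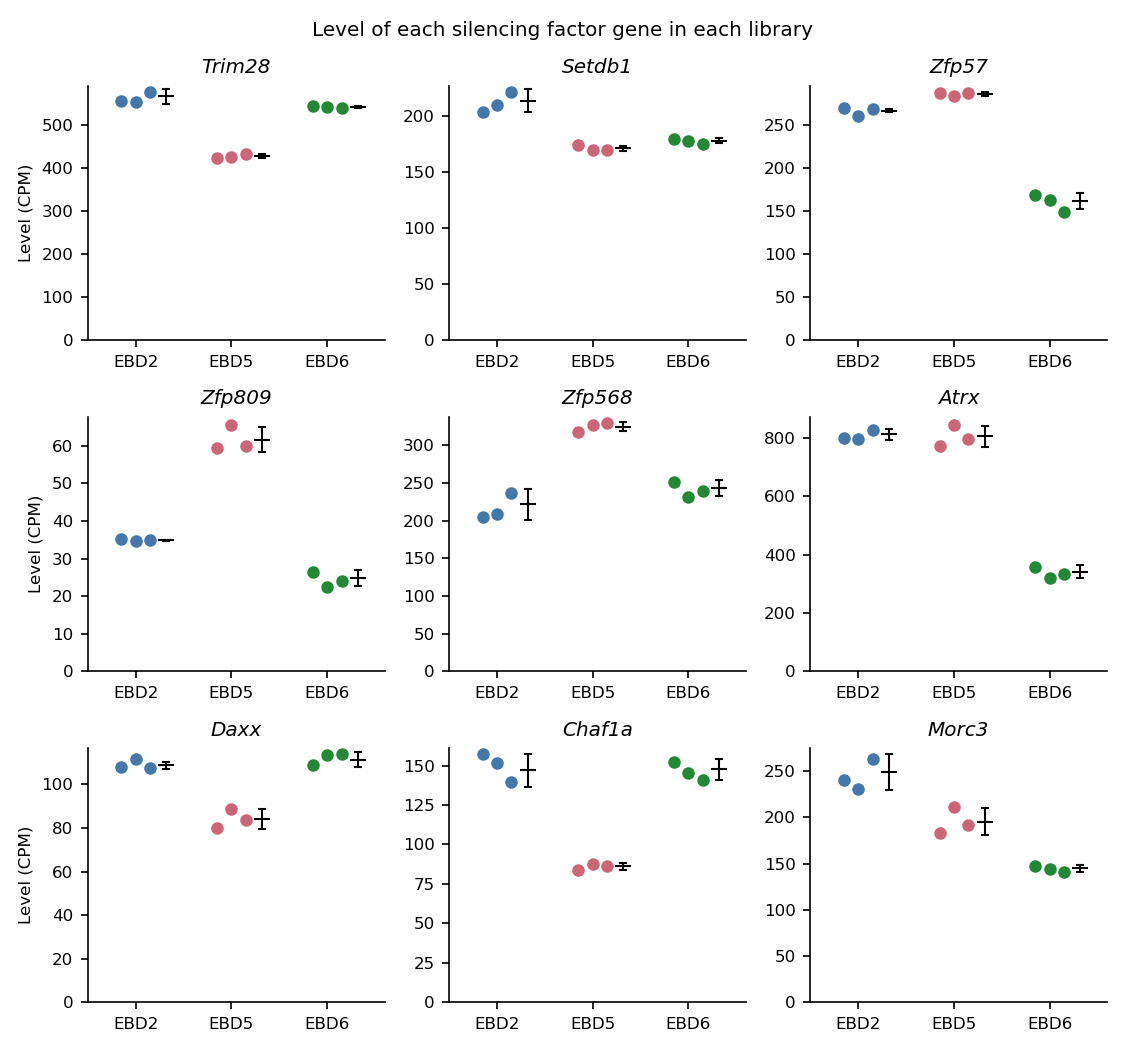
Level of the 9 silencing factor genes in CPM (vertical axes, starting at 0) in the 3 libraries of each group (points, in order of replicate number), with the mean and SD of the samples beside them (bars; near-identical libraries counted as 1 sample). Trim28, Daxx and Chaf1a are lowest in EBD5 (for Trim28 and Daxx both directions turn with bin medians subtracted). Setdb1 is lowest there too, with no call between EBD5 and EBD6. Zfp809 and Zfp568 are highest in EBD5, and Atrx and Zfp57 are lowest in EBD6.

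**Figure D2:**
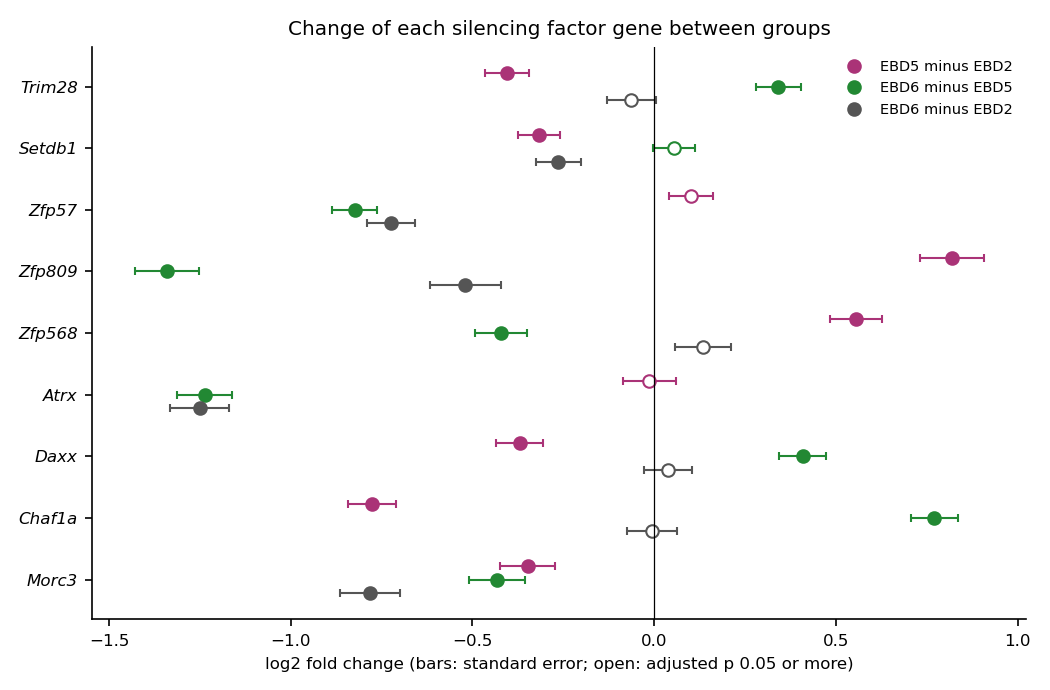
log2 fold change of each gene (horizontal axis) in the 3 comparisons, with the standard error as a bar; filled points passed an adjusted p of 0.05. Zfp809 from EBD5 to EBD6 (-1.34) and Atrx in EBD6 against EBD2 (-1.25) and against EBD5 (-1.24) lie farthest from 0.

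Trim28, the corepressor that KRAB zinc finger proteins share (ENSMUSG00000005566, chromosome 7, 12999114 to 13031035, plus strand, GRCm38), was at 554, 554 and 577 CPM in EBD2, 423, 425 and 433 CPM in EBD5 and 543, 542 and 538 CPM in EBD6. Every EBD5 library lay below every other library, and the EBD6 libraries lay just under those of EBD2. The fall to EBD5 was 1.32-fold (log2 -0.40 ± 0.06 SE; edgeR, adjusted p = 0.000139) and the rise to EBD6 1.27-fold (log2 0.34 ± 0.06 SE; edgeR, adjusted p = 0.000452). EBD6 and EBD2 differed by log2 -0.06 ± 0.07 SE and did not pass (edgeR, adjusted p = 0.432). Trim28 has the highest GC content of the members, 59.6%. The 244 genes of its bin of GC content and length had median changes of -0.66 and 1.02 in the first 2 comparisons, larger than its own, so that relative to them Trim28 stood at 0.25 in EBD5 against EBD2 and at -0.68 in EBD6 against EBD5. Both directions thus turn with this subtraction, and the difference between EBD6 and EBD2 moves to -0.40.

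Setdb1, the histone methyltransferase that TRIM28 recruits (ENSMUSG00000015697, chromosome 3, 95323525 to 95357202, minus strand), was at 203, 209 and 221 CPM in EBD2. It was at 173.5, 169.8 and 169.4 CPM in EBD5 and at 179, 177 and 175 CPM in EBD6. It was lower in both later groups than in any EBD2 library, by log2 -0.32 ± 0.06 SE in EBD5 (edgeR, adjusted p = 0.000503) and by log2 -0.26 ± 0.06 SE in EBD6 (edgeR, adjusted p = 0.0031). EBD6 against EBD5 did not pass (log2 0.05 ± 0.06 SE; edgeR, adjusted p = 0.423), although the libraries did not overlap. With the bin median subtracted the falls from EBD2 were -0.37 and -0.41, the second of which moved by more than 1.5 times. Setdb1 shares 75 bases (1.1%) of its exons with Cers2 and 249 bases (3.6%) with Gm37500, which had 0 to 2 counts. The ratio of Setdb1 to Trim28 was 0.366 to 0.382 in EBD2, 0.391 to 0.41 in EBD5 and 0.325 to 0.33 in EBD6. The 3 ranges of this ratio did not overlap, but its changes depended on the subtraction of bin medians, and the cause was not tested. Its log2 change was 0.09, -0.29 and -0.20 in the 3 comparisons and -0.62, 0.73 and -0.01 with bin medians subtracted, which turns the first 2. Ratios are given as a description of the libraries, with no test.

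Zfp57, whose protein keeps imprints (ENSMUSG00000036036, chromosome 17, 37001163 to 37010635, plus strand), was at 270.1, 261 and 268 CPM in EBD2 and 288, 283 and 287 CPM in EBD5. The libraries of these groups did not overlap, but the difference was small. In EBD6 it was at 169, 163 and 149 CPM, below every library of the other groups. It fell 1.77-fold from EBD5 to EBD6 (log2 -0.82 ± 0.06 SE; edgeR, adjusted p = 6.87e-07) and 1.65-fold from EBD2 to EBD6 (log2 -0.72 ± 0.07 SE; edgeR, adjusted p = 3.15e-06). The difference between EBD5 and EBD2, log2 0.10 ± 0.06 SE, did not pass (edgeR, adjusted p = 0.155). With its bin's median subtracted the falls to EBD6 were -0.64 and -0.68, and the small difference between EBD5 and EBD2 turned to -0.03.

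Zfp809, the zinc finger gene for retroviral primer binding sites (ENSMUSG00000057982, chromosome 9, 22225714 to 22243354, plus strand), was at 35.1, 34.6 and 35.0 CPM in EBD2, at 59.5, 65.5 and 59.9 CPM in EBD5 and at 26.4, 22.4 and 24.0 CPM in EBD6. The 3 groups did not overlap. The rise was 1.76-fold (log2 0.82 ± 0.09 SE; edgeR, adjusted p = 9.42e-06) and the fall from EBD5 to EBD6 2.53-fold (log2 -1.34 ± 0.09 SE; edgeR, adjusted p = 2.96e-07). Against EBD2, EBD6 was lower by log2 -0.52 ± 0.10 SE (edgeR, adjusted p = 0.000703). With the bin median subtracted the 3 values were 0.59, -1.08 and -0.49.

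Zfp568, the repressor of placental Igf2 (ENSMUSG00000074221, chromosome 7, 29983955 to 30028282, plus strand), was at 205.5, 209 and 236 CPM in EBD2, 318, 327 and 330 CPM in EBD5 and 251, 231 and 239 CPM in EBD6. It too was highest in EBD5, 1.47-fold above EBD2 (log2 0.56 ± 0.07 SE; edgeR, adjusted p = 3.91e-05). It then fell 1.34-fold (log2 -0.42 ± 0.07 SE; edgeR, adjusted p = 0.000266). EBD2 and EBD6 libraries overlapped and did not pass (log2 0.13 ± 0.08 SE; edgeR, adjusted p = 0.146). Without EBD2 replicate 3, the highest of its group, EBD6 was called higher than EBD2 (log2 0.22; edgeR, adjusted p = 0.041). With the bin median subtracted the rise was 0.35, the fall -0.29 and the difference between EBD6 and EBD2 0.0984.

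Igf2, the growth factor gene that ZFP568 represses from its placental promoter, was at 18.1, 251 and 716 CPM in EBD2, EBD5 and EBD6 (means), rising in both steps (log2 3.78 ± 0.11 SE; log2 1.51 ± 0.08 SE, or 0.77 with the bin median subtracted). The counts do not tell the promoters of Igf2 apart.

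Zfp57, Zfp809 and Zfp568 were also set beside all genes named Zfp with a number, a set that holds these 3 too. Of that set 344 genes were tested. Of these 132 were called higher and 91 lower between EBD2 and EBD5, a median log2 change of 0.0832. From EBD5 to EBD6, 68 were higher and 202 lower (median -0.457), or 58.7% lower against 33.3% of all tested genes. The 3 members thus fell in a comparison in which most zinc finger genes of this naming fell. These genes have a median GC content of 44.1%, below the 50% of all protein-coding genes tested, and with bin medians subtracted 233 of 338 lay below 0 (median -0.284).

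Atrx, the chromatin remodeller (ENSMUSG00000031229, chromosome X, 105797615 to 105929403, minus strand), changed most between EBD2 and EBD6. It was at 800.1, 797 and 825 CPM in EBD2, 771, 844.5 and 797 CPM in EBD5 and 356, 321 and 332 CPM in EBD6. EBD2 and EBD5 overlapped (log2 -0.01 ± 0.07 SE; edgeR, adjusted p = 0.887), while every EBD6 library was far below both. The fall from EBD5 was 2.36-fold (log2 -1.24 ± 0.08 SE; edgeR, adjusted p = 1.85e-07) and from EBD2 2.38-fold (log2 -1.25 ± 0.08 SE; edgeR, adjusted p = 2.16e-07). Its transcript has the lowest GC content of the members, 39.5%, and the 401 genes of its bin had a median log2 change of -0.525 from EBD5 to EBD6. Relative to them Atrx still stood at -0.71, and at -1.04 for EBD6 against EBD2. For EBD5 against EBD2, where it was not called, the subtraction moved it to -0.34.

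Daxx, the partner of ATRX (ENSMUSG00000002307, chromosome 17, 33909414 to 33915590, plus strand), was at 108.1, 112 and 107 CPM in EBD2, 79.8, 88.9 and 83.7 CPM in EBD5 and 109, 114 and 114 CPM in EBD6. It was lowest in EBD5, and EBD2 and EBD6 overlapped. It fell 1.29-fold (log2 -0.37 ± 0.06 SE; edgeR, adjusted p = 0.000379) and rose 1.33-fold (log2 0.41 ± 0.06 SE; edgeR, adjusted p = 0.000155), with no call between EBD6 and EBD2 (log2 0.04 ± 0.07 SE; edgeR, adjusted p = 0.638). Daxx also has a high GC content, 56.3%, and with its bin's median subtracted both directions turn, to 0.16 and -0.31, and so does the uncalled difference between EBD6 and EBD2, to -0.18. The ratio of Atrx to Daxx was 7.13 to 7.68 in EBD2, 9.5 to 9.66 in EBD5 and 2.83 to 3.27 in EBD6. The 3 ranges did not overlap. The log2 change of this ratio was 0.36, -1.65 and -1.29 in the 3 comparisons and -0.50, -0.40 and -0.86 with bin medians subtracted, so the first turned and the falls to EBD6 kept their direction at a smaller size.

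Chaf1a, the large CAF-1 subunit (ENSMUSG00000002835, chromosome 17, 56040439 to 56072289, plus strand), was at 157, 152 and 139.5 CPM in EBD2, 83.8, 87.9 and 86.5 CPM in EBD5 and 152, 145 and 141 CPM in EBD6. EBD5 was well below both other groups, which overlapped. It fell 1.71-fold (log2 -0.78 ± 0.07 SE; edgeR, adjusted p = 1.69e-06) and rose 1.71-fold (log2 0.77 ± 0.07 SE; edgeR, adjusted p = 1.61e-06), and EBD6 against EBD2 was at log2 -0.01 ± 0.07 SE. With the bin median subtracted the fall was -0.67, the rise 0.44 and the difference between EBD6 and EBD2 -0.17. The value of Chaf1a is uncertain, since 4648 bases (52.5%) of its exons are shared with Ubxn6 on the opposite strand, whether the counting used strand is not given in the sources used here, and its expected count was whole in 0 of 9 libraries. Ubxn6 itself was at 73.5 ± 0.546 (SD, n = 2), 40.2 ± 2.33 (n = 3) and 75.2 ± 4.92 (n = 2) CPM in the same groups, the same course, and its part in the result was not tested.

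Chaf1b, the gene of the middle CAF-1 subunit at another locus, fell from EBD2 to EBD5 (152 to 93.0 CPM, log2 -0.71 ± 0.07 SE) and rose to EBD6 (114 CPM, log2 0.29 ± 0.07 SE). The ratio of Chaf1a to Chaf1b was 0.885 to 1.06 in EBD2, 0.876 to 0.968 in EBD5 and 1.27 to 1.35 in EBD6. Every EBD6 library lay above both other groups, which overlapped. With bin medians subtracted the log2 change of the ratio from EBD5 to EBD6 went from 0.49 to 0.21.

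Morc3 (ENSMUSG00000039456, chromosome 16, 93832121 to 93876073, plus strand) was at 240.2, 230.5 and 263 CPM in EBD2, 183, 211 and 191 CPM in EBD5 and 147, 144 and 141 CPM in EBD6. It was called lower at each step and the 3 groups did not overlap. It changed by log2 -0.35 ± 0.08 SE to EBD5 (edgeR, adjusted p = 0.00159) and by -0.43 ± 0.08 SE to EBD6 (edgeR, adjusted p = 0.000415). Over both steps the fall was 1.72-fold (log2 -0.78 ± 0.08 SE; edgeR, adjusted p = 9.46e-06). With the bin median subtracted the values were -0.60, -0.15 and -0.72, so both steps moved by more than 1.5 times, in opposite ways.

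**Figure D3:**
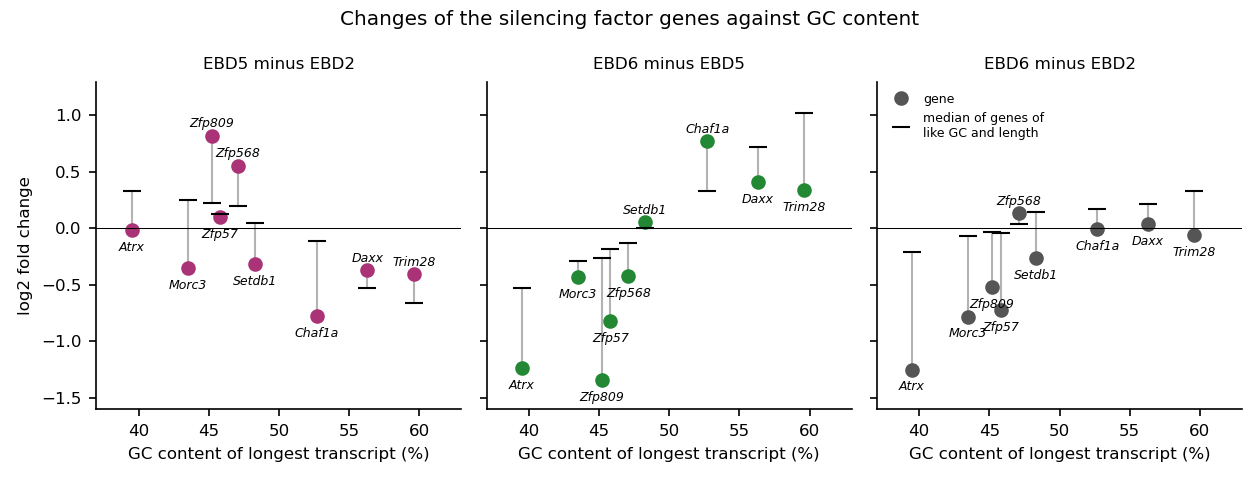
log2 fold change of each gene (points, vertical axis) against the GC content of its longest transcript (horizontal axis, %) in the 3 comparisons, with the median change of genes of like GC content and length (black dashes) joined to it by a grey line. From EBD5 to EBD6 the medians run from -0.525 for Atrx to 1.02 for Trim28, and 7 of the 9 genes lie below theirs.

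With bin medians subtracted, 4 members stood above 0 and 5 below in EBD5 against EBD2, and 2 above and 7 below in EBD6 against EBD5. In EBD6 against EBD2, where the correlation with GC content was smallest, 8 of 9 stood below 0 and only Zfp568 above it (median -0.411). Trim28, Daxx and Chaf1a, among those below 0, were not called in this comparison. Of the genes named Zfp with a number, 222 of 338 lay below 0 too. By construction a bin has about as many genes above its median as below. These values carry no test.

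Levels per length (counts over exonic length, scaled as TPM) compare the genes with each other. Trim28 was highest in each group, at 613, 391 and 595 TPM, followed by Zfp57 at 318, 287 and 195 TPM. In EBD2 the order went on with Morc3 (207), Atrx (168), Daxx (156), Setdb1 (140.3), Zfp568 (136), Chaf1a (74.9) and Zfp809 (53.2 TPM). The ranges of Setdb1 and Zfp568 overlapped there. In EBD5 Zfp568 came next after Zfp57 (168 TPM), and Atrx (141) and Morc3 (137 TPM) could not be told apart. In EBD6 Daxx came next after Zfp57 (161.5 TPM), and Atrx (71.7 TPM) lay above Zfp809 (38.2 TPM) alone. Taken over the longest transcript in place of all exons, a setting chosen after seeing the data, Atrx had rank 3 in EBD2 and EBD5 and rank 6 in EBD6, and Zfp809 had rank 8, 6 and 9.

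**Figure D4:**
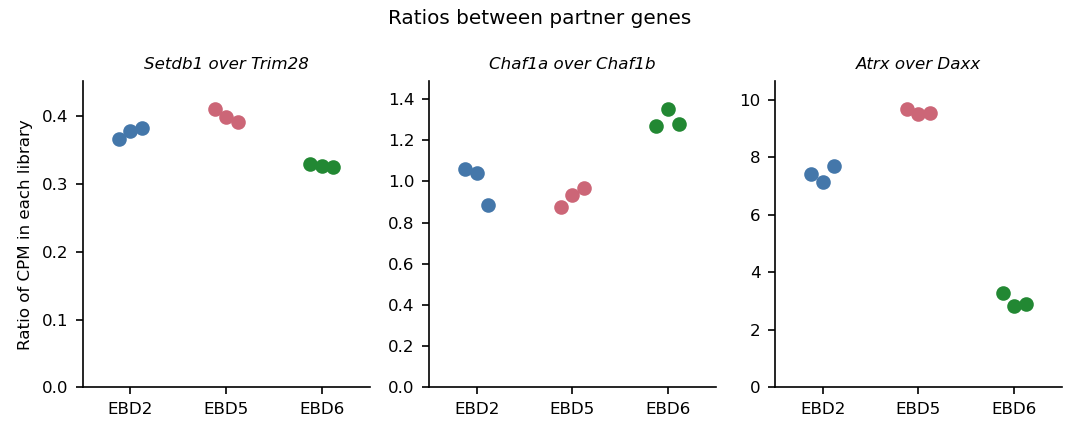
Ratio of the CPM of 2 partner genes (vertical axes, starting at 0) in each library (points) of the 3 groups. Atrx over Daxx lies at 2.83 to 3.27 in EBD6 and at 7.13 or more in the other groups. The ratios carry no correction for GC content; with bin medians subtracted the change of Atrx over Daxx from EBD5 to EBD6 shrinks from log2 -1.65 to -0.40 and that of Setdb1 over Trim28 turns from -0.29 to 0.73.

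The members were compared by the root mean square difference of their centred log2 CPM over the 7 samples. Trim28 and Daxx, the members of highest GC content, were the closest pair (0.0643) and Zfp809 and Chaf1a the farthest (0.927). The same measure gave the genes most like the 3 members of widest range among 12275 genes with a mean of at least 5 CPM. For Atrx they were Pcmtd1 (0.0282), Ccdc18, Mga, Macf1 and Zup1 (0.0804). For Zfp57 they included Ccp110 (0.0312), Usp34, Prr11 and Etnk1 (0.0421). For Zfp809 they were Rybp (0.0661), Esco1, Tia1, Kpna2 and Nbeal1 (0.0875).

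Genes that work with the members were taken from lists chosen by function, and their levels below are group means. The counts on each list stand beside the shares of all tested genes called. These were 34.9% higher and 35.1% lower in EBD5 than EBD2, and 36.9% and 33.3% in EBD6 than EBD5. For EBD6 against EBD2 they were 33.8% and 32.3%. The lists are short and were not tested as sets. Of 7 tested genes of the HUSH complex, which spreads silencing with SETDB1, and of SETDB1's cofactors, EBD5 had 2 above and 2 below EBD2. From EBD5 to EBD6, 5 fell and the other 2 did not pass (median log2 -0.622, or -0.269 with bin medians subtracted, against 0.0399 over all genes). Fam208a, which encodes the HUSH subunit TASOR, was at 269.5, 240 and 131 CPM in EBD2, EBD5 and EBD6, and its fall from EBD5 to EBD6 was called (log2 -0.88 ± 0.07 SE, or -0.35 with the bin median subtracted). Atf7ip, which stabilises SETDB1, was at 295, 291 and 170.0 CPM and fell from EBD5 to EBD6 (log2 -0.78 ± 0.06 SE). Resf1, which encodes a partner of SETDB1, rose to EBD5 (297 to 452 CPM, log2 0.61 ± 0.08 SE) and fell to EBD6 (262 CPM, log2 -0.79 ± 0.08 SE). With bin medians subtracted these were 0.28 and -0.27.

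Of 9 genes for other methyltransferases of the same histone mark and for HP1 proteins, which bind it, 4 rose and 3 fell between EBD2 and EBD5. From EBD5 to EBD6, 2 were higher and 6 lower. Suv39h1, the methyltransferase gene of pericentromeric heterochromatin, rose from 58.2 to 147 CPM in EBD5 (log2 1.35 ± 0.06 SE) and fell to 112 CPM in EBD6 (log2 -0.40 ± 0.06 SE). The HP1 gene Cbx3 rose from 35.2 to 110.6 CPM (log2 1.65 ± 0.13 SE) and fell to 37.3 CPM (log2 -1.55 ± 0.13 SE, or -0.997 with the bin median subtracted). The HP1 gene Cbx1 did not pass between EBD2 and EBD5 (369.9 and 375 CPM; log2 0.02, turning to -0.11 with the bin median subtracted) and fell to 202 CPM in EBD6 (log2 -0.90 ± 0.08 SE).

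Of 10 genes of CAF-1 and of chaperones and genes of the replacement histone, 5 rose and 2 fell between EBD2 and EBD5, and 4 rose and 5 fell between EBD5 and EBD6. H3f3b, which encodes the histone that ATRX and DAXX deposit, rose from 326 to 556 CPM (log2 0.77 ± 0.10 SE) and fell to 314 CPM (log2 -0.83 ± 0.10 SE, or -0.48 with the bin median subtracted). H3f3a encodes the same protein, and it rose from 17.3 to 123 CPM (log2 2.82 ± 0.09 SE) and fell to 12.1 CPM (log2 -3.34 ± 0.09 SE). The H3f3 genes share sequence with processed pseudogenes, whose share of counts was 0.986 to 0.997% in EBD5 against 0.15 to 0.28% in the other groups, and their single values are uncertain.

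Of 11 genes of the deacetylase complex NuRD and of LSD1, which TRIM28 also recruits, 3 rose and 5 fell between EBD2 and EBD5, and 7 rose and 2 fell between EBD5 and EBD6. The median log2 changes of these steps were -0.132 and 0.327. With bin medians subtracted they were 0.0238 and -0.066, so both turned. Chd3, a remodeller that binds modified TRIM28, rose at both steps (32.4, 49.0 and 103 CPM; log2 0.56 ± 0.12 SE; log2 1.08 ± 0.11 SE), or by 1.03 and 0.61 with bin medians subtracted. Mta3, a NuRD subunit, fell from 187.5 to 99.4 CPM in EBD5 (log2 -0.91 ± 0.09 SE) and was called higher in EBD6 at 134 CPM (log2 0.42 ± 0.09 SE), a direction that turns with the bin median subtracted (-0.02).

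SUMO modification of TRIM28 is what attracts SETDB1. Of 14 genes of this pathway 5 rose and 5 fell between EBD2 and EBD5 (35.7% each), near the shares over all tested genes. From EBD5 to EBD6, 1 was higher and 6 lower. The rise was that of the ligase gene Pias4 (32.5 to 91.8 CPM, 2.84-fold, or log2 0.48 with the bin median subtracted), whose GC content is 60.8%. Pias4 had fallen from 74.2 CPM in EBD2 (log2 -1.19 ± 0.08 SE, or -0.37 with the bin median subtracted). EBD6 lay above EBD2 by log2 0.31 ± 0.08 SE, or 0.01 with the bin median subtracted.

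Of 6 genes for DNA methylation, which ZFP57 protects at imprints, 5 fell to EBD5 and 1 did not pass, and all 6 were lower in EBD6 than in EBD2. Dnmt3a, a de novo methyltransferase gene, fell to EBD5 (502 to 208 CPM, log2 -1.27 ± 0.06 SE) and was at 207 CPM in EBD6. Dnmt1, the maintenance methyltransferase gene, was at 377, 221 and 318 CPM, a fall (log2 -0.77 ± 0.06 SE) and a rise (log2 0.53 ± 0.06 SE, or 0.16 with the bin median subtracted).

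Of 5 tested genes of the other MORC proteins and of PML, the scaffold of the nuclear bodies that hold DAXX and MORC3, 1 rose and 4 fell between EBD2 and EBD5; Morc2a and Morc2b are on the HUSH list too. Morc1, which silences retroelements in the germ line, fell from 183.5 to 54.1 CPM (log2 -1.76 ± 0.07 SE) and to 36.7 CPM in EBD6. Morc4 was the gene that rose, from 9.20 to 96.7 CPM (log2 3.34 ± 0.11 SE), and it fell to 71.2 CPM in EBD6 (log2 -0.44 ± 0.08 SE). Pml fell from 265 to 168 CPM in EBD5 (log2 -0.66 ± 0.06 SE).

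Of 12 other zinc finger genes tied to retroelements or imprints, 6 rose and 3 fell between EBD2 and EBD5, and 2 rose and 8 fell between EBD5 and EBD6. Their median log2 changes were 0.192 and -0.644. With bin medians subtracted these were -0.0432 and -0.28, so the first turned, with 5 genes above 0 and 7 below. Zfp445, the other keeper of imprints, was picked after its values were seen. It was at 215, 245.5 and 143 CPM, a slight rise (log2 0.19 ± 0.06 SE, or -0.03 with the bin median subtracted, which turns its direction) and a fall (log2 -0.78 ± 0.07 SE, or -0.40). Zfp932 and Gm15446, close copies whose single values are uncertain, rose to EBD5 5.10-fold and 3.99-fold and fell to EBD6 8.17-fold and 7.95-fold. Zfp819 fell from 49.4 to 15.6 CPM in EBD5 (log2 -1.66 ± 0.10 SE) and was at 18.9 CPM in EBD6.

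**Figure D5:**
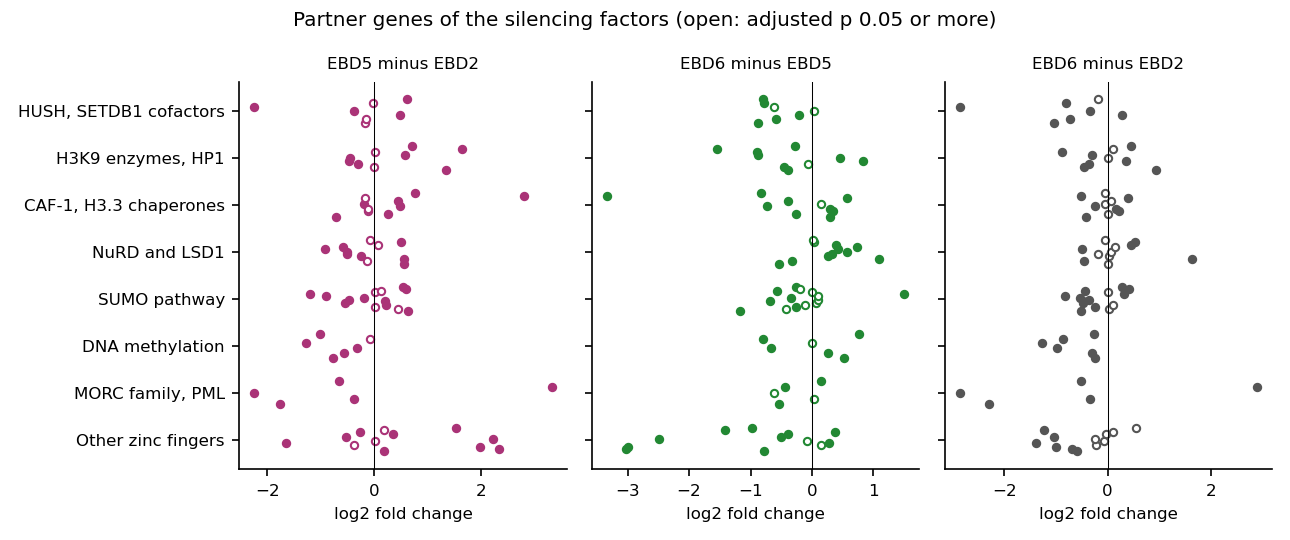
log2 fold change (horizontal axes) of the tested genes of 8 functional lists (rows) in the 3 comparisons; each point is a gene and filled points passed an adjusted p of 0.05. The DNA methylation genes lie below 0 in EBD6 against EBD2, and the other lists hold called genes on both sides of 0 in that comparison or, for the zinc fingers, below it.

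Genes at imprinting control regions and genes of the state that resembles the cleavage embryo were also counted. ZFP57 keeps DNA methylation on the methylated copy of such control regions. The effect of the members on the level of these genes was not tested, so a rise is not read as loss of repression. Of 27 tested imprinted genes 13 rose and 6 fell between EBD2 and EBD5 (48.1% and 22.2%, against 34.9% and 35.1% of all tested genes). Between EBD5 and EBD6, 15 rose and 8 fell (55.6% and 29.6%, against 36.9% and 33.3%). Of 14 cleavage-state genes, many of them close copies, 5 passed the filter on low counts, and no direction is read from them since genes near 0 in a group pass through the group where they are high. Snrpn, an imprinted gene whose control region ZFP57 binds, fell at both steps (227.5, 172.5 and 94.9 CPM; log2 -0.40 ± 0.08 SE; log2 -0.88 ± 0.08 SE). It does not stand for its list, in which most called genes rose at each step. Grb10 on the same list rose at both (28.2, 230.8 and 348.5 CPM, log2 3.01 ± 0.09 SE and 0.59 ± 0.07 SE).

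Markers of cell types differed between the groups beside the members. The summed level of 6 pluripotency markers, all present in each library, was 1224 to 1394 CPM in EBD2, 911 to 1020 CPM in EBD5 and 782 to 901 CPM in EBD6. That of 6 visceral endoderm markers was 21.2 to 23.2, 2158 to 2250 and 1139 to 1224 CPM, with 3 of the 6 counted in every EBD2 library. Mesoderm markers (6) summed to 5.63 to 8.99, 13.4 to 14.2 and 149.9 to 161 CPM, with Mesp1 at 0 in EBD5, and trophoblast markers (5) to 3.52 to 5.60, 2.51 to 3.595 and 32.9 to 39.4 CPM. In trophoblast Cdx2, Prl3d1 and Elf5 were at 0 in EBD2 and Prl3d1 at 0 in EBD5. Neuroectoderm markers (5) summed to 143 to 152, 66.3 to 74.6 and 182 to 187 CPM, and fibroblast markers (6), for feeder cells, to 23 to 23.6, 14.9 to 20.02 and 41.8 to 50.8 CPM, with Postn and Lum at 0 in EBD2 and Lum at 0 in EBD5. A sum does not stand for each of its markers. From EBD2 to EBD5, 1 pluripotency marker rose, 2 fell and 3 did not pass. For neuroectoderm these counts were 1, 3 and 1. For the 4 fibroblast markers tested they were 2, 1 and 1, although the sum of all 6 fell. From EBD5 to EBD6, 2 visceral endoderm markers rose, 3 fell and 1 did not pass, and for pluripotency the counts were 1, 3 and 2. In these bulk samples fewer cells of a type and less RNA per cell cannot be told apart, and the part of these cell types in the changes of the members was not tested.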

How the data were processed

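Polyadenylated RNA was sequenced in 9 libraries of 3 groups. The authors deposited expected counts per gene, estimated counts that need not be whole. The submitters' processing notes list, without their roles, the build mm10, RSEM 1.3.30, STAR 2.7.10a, DESeq2 1.38.3, cutadapt 1.18 and edgeR 3.40.2. Annotation and strand setting: not given in the sources used here. A row that names no gene took at most 0.0157% of a library and was left out. Symbols, lengths and GC content came from GENCODE M21 (GRCm38), where 99.9% of gene IDs were found. Counts were rounded, near-identical libraries summed, genes filtered by filterByExpr and TMM-scaled counts given to the quasi-likelihood F test of edgeR 4.0.16 under R 4.3.3, in one fit of 7 samples with 4 residual degrees of freedom, adjusted by Benjamini-Hochberg over 16168 genes. A change has its SE as its size over the square root of F. On simulated data the same test was checked and recovered known changes. GC and length bins were 10 by 5 groups of protein-coding genes. DESeq2 1.42.0, limma 3.58.1 and other settings were alternatives. All members were named, and from each list genes among the 4 largest called changes per direction and comparison. The members and lists were chosen with earlier results of these data known.

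A second deposited table was not used here. Protein sequences were not used here. Some named genes are not reported here.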

Additional observations from a re-analysis of the deposited data

Results flagged for a closer look

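A row of the table named MR3, which names no gene of the annotation and entered no comparison, held 856 to 1390 counts in the EBD6 libraries, 0 to 2 in EBD2 and 0 in EBD5. It stands out as a signal outside the main measurement, and the labels do not say what it is.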

How the results depend on the processing

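Of the 27 member changes, every called one kept its direction and its call with DESeq2 size factors, DESeq2, limma-voom, no low-count filter, 5 CPM in 3 libraries, only the groups compared, 9 separate libraries with or without the replicate block, unrounded counts, and without each library. Zfp568 in EBD6 against EBD2 passed with no filter (log2 0.18; edgeR, adjusted p = 0.0373), with 9 libraries (0.15; edgeR, adjusted p = 0.0394) and without EBD2 replicate 3, which leaves 1 EBD2 sample assumed to vary like the others. So 1 member was higher in these, and 0 to 1 over the fits without a library. Subtracting the medians of GC and length bins reversed Trim28 (0.25 and -0.68) and Daxx (0.16 and -0.31) in EBD5 against EBD2 and EBD6 against EBD5; the cause was not tested. It also turned the change of Setdb1 over Trim28 in both and of Atrx over Daxx in the first, an alternative chosen after seeing the data. Against a fold of 1.5 the members higher and lower were 1 and 1 (EBD5 against EBD2), 1 and 3 (EBD6 against EBD5) and 0 and 3 (EBD6 against EBD2). Over all genes they were 2972 and 2634, 2844 and 2473, and 2655 and 2263; a stricter test calls fewer genes by its construction.

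Same-numbered libraries correlated in their deviations by -0.16 to 0.12, so the numbers do not pair the samples. With the replicate block, EBD5 against EBD2 gave 5821 higher and 5691 lower genes, and 2 and 5 members. Without a low-count filter the median of all genes moved to 0.239 (EBD6 against EBD5) and 0.19 (EBD6 against EBD2). Depth does not limit the members, of which the smallest count was 150.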
